A study of Mus musculus with 6 samples.

Results

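Transforming growth factor beta (TGF-beta) signalling was followed through 9 genes in mouse B16 melanomas: the ligands Tgfb1, Tgfb2 and Tgfb3, the receptors Tgfbr1, Tgfbr2 and Tgfbr3, and the intracellular mediators Smad2, Smad3 and Smad7. The genes were chosen by name and make up 9 of the 34665 gene rows. All 9 were detected in every library and all 9 passed the filter on low counts. The samples are bulk RNA-seq libraries of tumour tissue, with B16, a mouse line that forms pigmented melanomas, given as the cell line and wild type as the genotype in both groups. The RI tumours came from mice given radiation and an immune checkpoint inhibitor (n = 3, replicates 1, 2 and 4). The ICI tumours came from mice given the inhibitor alone (n = 3, replicates 1, 2 and 3), so every mouse received the inhibitor and no untreated tumour is compared here. The sources used here do not name the inhibitor's target, the dose, the time of harvest or whether the tumour sampled was itself irradiated. They also do not state separate animals, and the p-values then reflect only how much these libraries vary, which may be technical.

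TGF-beta is secreted in a latent complex, held by its own propeptide and by latent TGF-beta binding proteins, and is freed by integrins and proteases. The active ligand binds the type II receptor Tgfbr2, which phosphorylates the type I receptor Tgfbr1, and Tgfbr3 (betaglycan) presents ligand to the pair. Tgfbr1 then phosphorylates Smad2 and Smad3, which enter the nucleus with Smad4 and induce, among other genes, Smad7, an inhibitor that turns the receptor off. In tumours the pathway is known for activating fibroblasts, for matrix deposition and for restraining T cells.

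The total count ranged from 22543721 to 45624013 in RI libraries and from 32201558 to 43109047 in ICI libraries. RI replicate 1 stood apart, as it detected 29748 genes and the remaining 5 libraries 22763 to 24891 each, and mitochondrially encoded genes took 11.5% to 14.7% of counts in RI and 4.39% to 5.01% in ICI. Markers of melanoma, such as Pmel and Dct, were abundant in each library: 8 listed genes summed to 10608 to 15133 counts per 1000000 (CPM) in RI and 13948 to 15842 CPM in ICI. Levels below are CPM scaled by the trimmed mean of M values (TMM). Fold changes are RI over ICI on the log2 scale with a standard error (SE), and a gene was called at an adjusted p under 0.05 from edgeR's quasi-likelihood test. Over all 16924 genes tested, 754 were called higher in RI (4.46%) and 799 lower (4.72%), 9.18% in all, or 1046 higher and 497 lower with upper-quartile scaling. All libraries of RI lay below all of ICI for 19.4% of tested genes and above them for 17.8%.

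Of the 9 genes, Tgfbr1 fell in RI tumours and the other 8 did not pass, against 4.72% of all tested genes called lower. In edgeR 0 of 9 were higher, with 0 of 9 also at an unadjusted p under 0.05. DESeq2 called 0 of 9 higher and 2 lower (Tgfbr1 and Tgfb3), against 8.28% higher and 8.42% lower of all genes it tested. With limma-voom 0 were higher and 1 lower (Tgfbr1), against 3.75% and 4.08%. With no filter on low counts edgeR called 0 higher and 3 lower (Tgfbr1, Tgfb3 and Smad2), against 3.23% and 4.35%. It called 0 of 9 with upper-quartile scaling, with the replicate number as a block, and with a correction for transcript length and GC content. Of all 16924 tested genes, 497, 245 and 349 were lower in these fits. Leaving out 1 library gave 0 to 2 of the 9 lower, and 0 to 1545 of all tested genes. At an unadjusted p under 0.05, 3 of 9 were lower (Tgfbr1, Tgfb3 and Smad2). The median log2 fold change of the 9 genes was -0.38, against 0.01 over all tested genes. The genes have long transcripts, 7 of 9 at 4000 bases or more. The 5340 tested genes of that length had a median log2 fold change of -0.17, and 9.76% of them were called lower and 2.85% higher. With a correction for transcript length and GC content together, the median of the 9 genes was -0.36, against -0.04 over all tested genes, and its value for each gene is given below. Bulk libraries cannot tell fewer cells of a type from less RNA per cell.

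**Figure D1:**
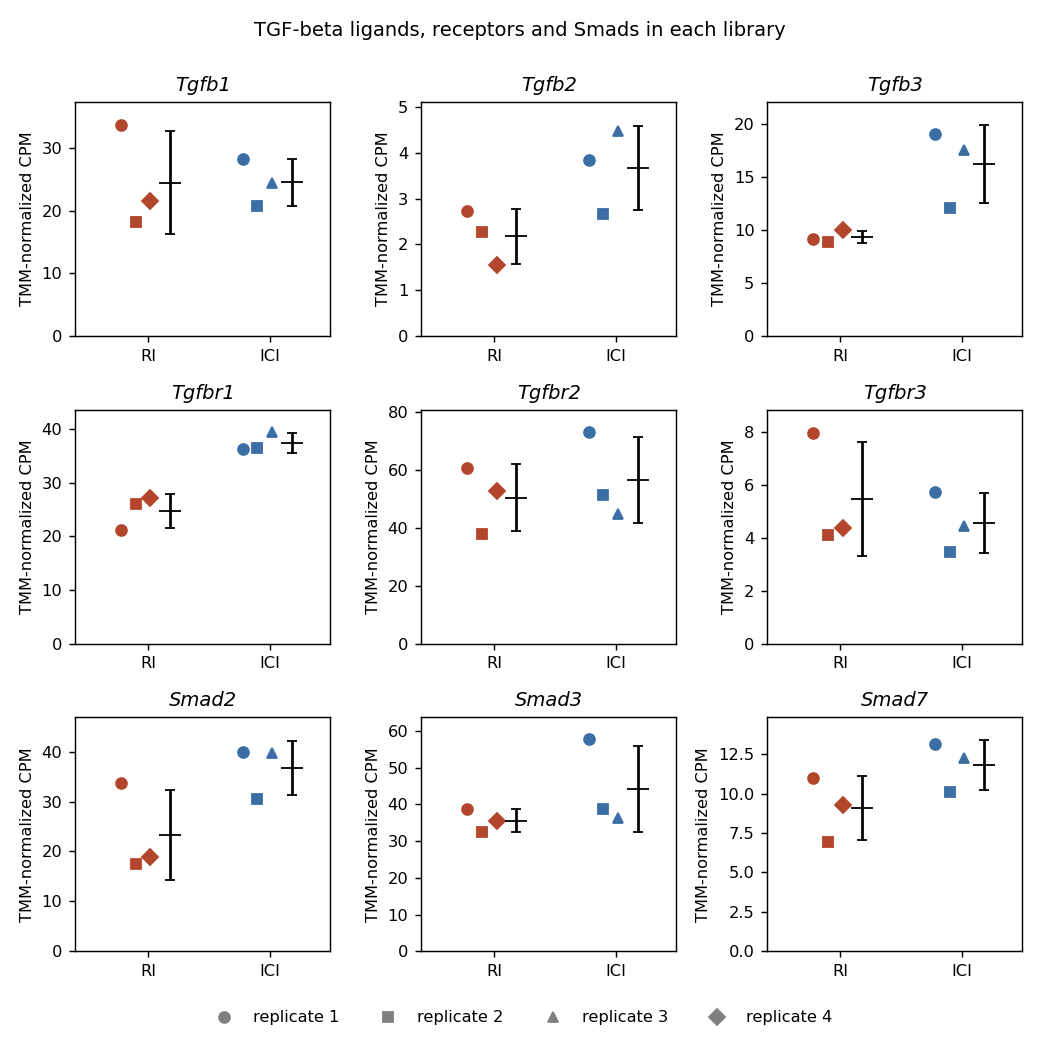
TMM-normalized CPM of each of the 9 genes (vertical axes, from 0) in the 3 RI libraries (left, red) and the 3 ICI libraries (right, blue), with the mean and SD as black bars and the replicate number as the symbol. The groups lie apart for Tgfb3 and Tgfbr1 and overlap for the other 7.

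Among the receptors, Tgfbr1, the type I kinase that phosphorylates Smad2 and Smad3 (chromosome 4, 47353222 to 47414931 on GRCm38, plus strand), was the 1 gene that passed. Tgfbr1 stood at 21.1, 26.0 and 27.1 CPM in RI replicates 1, 2 and 4, against 36.2, 36.4 and 39.5 CPM in ICI replicates 1, 2 and 3. Every RI library was below every ICI library, and the lowest value was that of RI replicate 1. It averaged 24.7 ± 3.15 CPM in RI and 37.4 ± 1.83 CPM in ICI (SD, n = 3 each), which is 1.51-fold lower (log2 fold change -0.60, SE 0.14, adjusted p = 0.0428). The call ended without ICI replicate 1 (log2 fold change -0.63, adjusted p = 0.157), ICI replicate 2 (-0.62, 0.0787), ICI replicate 3 (-0.57, 0.129), RI replicate 2 (-0.62, 0.109) or RI replicate 4 (-0.67, 0.0899), with a fold change about as large in each. It stayed without RI replicate 1 (-0.50, 0.0343). Without ICI replicate 1 edgeR called 0 of all tested genes (at an unadjusted p under 0.05, 1841 higher and 1860 lower), and without RI replicate 2 also 0 (2130 higher and 1977 lower), so the lost calls in these fits are not particular to Tgfbr1. With the correction for length and GC content, under which 2.06% of all tested genes were called lower, the log2 fold change of Tgfbr1 was -0.36 (adjusted p = 0.153). With this correction and without RI replicate 1 it was -0.26 (adjusted p = 0.181), and the call was lost there too. With upper-quartile scaling it was -0.51 (adjusted p = 0.0542), also not a call. Over 17 other settings the adjusted p ranged from 0.00968 to 0.231.

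Tgfbr2, the type II kinase that binds ligand (chromosome 9, 116084293 to 116175360, minus strand), had 60.7, 38.0 and 52.7 CPM in RI and 73.1, 51.5 and 44.6 CPM in ICI. The groups overlapped, with means of 50.4 ± 11.5 CPM in RI and 56.4 ± 14.9 CPM in ICI (SD, n = 3 each), and Tgfbr2 was not called (log2 fold change -0.16, SE 0.23, adjusted p = 0.655). Its log2 fold change was -0.02 with the length and GC correction and 0.06 without ICI replicate 1. Tgfbr3, the co-receptor that presents ligand (chromosome 5, 107106570 to 107289629, minus strand), had 7.98, 4.10 and 4.39 CPM in RI and 5.75, 3.47 and 4.47 CPM in ICI. RI replicate 1 was highest and the other RI libraries lay within the ICI range. Tgfbr3 was the 1 gene of the 9 with a fold change above 0 (log2 fold change 0.27, SE 0.34, adjusted p = 0.614), and its log2 fold change was -0.10 without RI replicate 1 and 0.41 with the length and GC correction.

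The promoter windows of both members of the receptor pair are shown, as Tgfbr1 passed and Tgfbr2 did not, with that of Smad5, a Smad of the bone morphogenetic protein (BMP) branch that also fell. They run from 250 bases before to 50 after the start, from RefSeq on GRCm38.p6, and capitals mark GC boxes, GGGCGG on either strand. The windows are chr4:47352972-47353271 on the plus strand for Tgfbr1, chr9:116175314-116175613 on the minus strand for Tgfbr2 and chr13:56702760-56703059 on the plus strand for Smad5.
Tgfbr1: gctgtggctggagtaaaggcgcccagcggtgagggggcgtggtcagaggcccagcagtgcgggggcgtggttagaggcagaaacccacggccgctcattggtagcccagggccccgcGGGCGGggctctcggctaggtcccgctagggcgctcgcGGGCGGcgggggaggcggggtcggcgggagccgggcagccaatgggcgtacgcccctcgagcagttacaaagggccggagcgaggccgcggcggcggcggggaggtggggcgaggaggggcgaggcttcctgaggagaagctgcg
Tgfbr2: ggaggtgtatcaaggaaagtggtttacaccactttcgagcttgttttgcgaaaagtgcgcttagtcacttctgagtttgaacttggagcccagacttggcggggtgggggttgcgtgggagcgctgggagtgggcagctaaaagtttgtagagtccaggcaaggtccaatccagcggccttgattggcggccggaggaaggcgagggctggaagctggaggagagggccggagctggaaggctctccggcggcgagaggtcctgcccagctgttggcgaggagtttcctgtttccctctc
Smad5: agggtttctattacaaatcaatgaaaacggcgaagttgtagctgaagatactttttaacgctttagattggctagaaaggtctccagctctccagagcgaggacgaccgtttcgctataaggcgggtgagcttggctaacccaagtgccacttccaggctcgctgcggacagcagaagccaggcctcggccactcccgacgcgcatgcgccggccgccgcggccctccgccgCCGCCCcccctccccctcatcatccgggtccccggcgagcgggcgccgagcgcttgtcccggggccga
The Tgfbr1 window held 2 GC boxes and 2 CCAAT boxes (CCAAT on either strand), the Tgfbr2 window 0 GC boxes and 2 CCAAT boxes, and the Smad5 window 1 of each. Of 32851 promoter windows of this length, 35.7% held a GC box and 37.4% a CCAAT box. None of the 3 windows held a TATA box (TATAAA), an AP-1 site (TGANTCA) or the palindromic Smad element (GTCTAGAC), which 13.6%, 7.81% and 0.213% of all windows held. Windows are described for 5 of the 9 genes, matched by symbol in the RefSeq table at the start nearest the annotated gene start. Tgfb3 and Tgfbr3 were not matched, and the windows of Smad2 and Smad7 are not reported here. The Tgfb1 window held 6 GC boxes, the Smad3 window 2, and the Tgfb2 window 0 GC boxes and 1 TATA box. Matches of different motifs may share letters, and a match is a description of letters.

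Of the ligands, Tgfb3 came nearest to a call. Tgfb3, an isoform prominent in mesenchymal tissue (chromosome 12, 86056745 to 86079041, minus strand), had 9.12, 8.88 and 10.03 CPM in RI and 19.1, 12.1 and 17.6 CPM in ICI. The RI libraries lay close together and all below ICI, as 19.4% of all tested genes did. The means were 9.34 ± 0.611 CPM in RI and 16.2 ± 3.68 CPM in ICI (SD, n = 3 each), with a log2 fold change of -0.80 (SE 0.21) at adjusted p = 0.0506. With the correction for length and GC content the log2 fold change was -0.85 (adjusted p = 0.0577), and without ICI replicate 2 it was -0.98 (adjusted p = 0.0466). DESeq2 gave adjusted p = 0.00915, the lowest of 17 other settings, whose highest was 0.192. Gm48008, a gene model on the opposite strand, covers 7.60% of the Tgfb3 exons, and the strand setting of the counts is not known.

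Tgfb1, the isoform most studied in immune regulation (chromosome 7, 25687002 to 25705077, plus strand), had 33.7, 18.1 and 21.5 CPM in RI and 28.2, 20.8 and 24.5 CPM in ICI. RI held both the highest and the lowest value, and the means were 24.4 ± 8.21 CPM in RI and 24.5 ± 3.71 CPM in ICI (SD, n = 3 each). Its log2 fold change was -0.00 (SE 0.24, adjusted p = 0.992), and it was -0.31 without RI replicate 1, 0.18 without RI replicate 2 and -0.12 with the length and GC correction. Tgfb2, the rarest of the ligands by counts (chromosome 1, 186622792 to 186705989, minus strand), had 2.73, 2.28 and 1.54 CPM in RI and 3.85, 2.67 and 4.47 CPM in ICI. The groups overlapped by RI replicate 1 and ICI replicate 2 alone, and Tgfb2 was not called (log2 fold change -0.74, SE 0.33, adjusted p = 0.169, and -0.60 on the log2 scale with the length and GC correction). Its lowest count, 33 in RI replicate 4, has an exact 95% Poisson interval of 22.7 to 46.3 counts, which covers counting error only. The lowest counts of the other 8 genes ran from 94 to 1130.

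Ratios of counts within a library do not depend on library scaling, and those given here were chosen after their values were seen. There were 0.270, 0.489 and 0.467 Tgfb3 counts per Tgfb1 count in RI, against 0.675, 0.580 and 0.717 in ICI. There were 0.0810, 0.125 and 0.0717 Tgfb2 counts per Tgfb1 count in RI, against 0.136, 0.128 and 0.183 in ICI. For both ratios each RI library was below each ICI library. For Tgfb2 the gap was narrow, 0.125 in RI replicate 2 against 0.128 in ICI replicate 2, at 101 and 106 Tgfb2 counts. How often ratios of other gene pairs lie apart was not counted. Tgfbr1 counts per Tgfbr2 count were 0.349, 0.684 and 0.513 in RI and 0.495, 0.708 and 0.885 in ICI, and overlapped. The ratios of Smad2 to Smad3 and of Tgfbr3 to Tgfbr2 overlapped as well.

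None of the 3 Smads passed with all libraries and the filter on low counts. Smad2, a receptor-activated Smad, had 33.7, 17.5 and 18.9 CPM in RI and 39.9, 30.4 and 39.6 CPM in ICI. RI replicate 1 lay within the ICI range and the other RI libraries well below it. The means were 23.4 ± 9.004 CPM in RI and 36.7 ± 5.38 CPM in ICI (SD, n = 3 each; log2 fold change -0.65, SE 0.26, adjusted p = 0.135). Without RI replicate 1, Smad2 was called lower at a log2 fold change of -1.01 (SE 0.16, adjusted p = 0.0150), where 8.8% of all tested genes were called lower and 8.91% higher. With the correction for length and GC content and without that library it was also called, at -0.79 (adjusted p = 0.0170), and with the correction alone it was not, at -0.43 (adjusted p = 0.286). The adjusted p over 17 other settings ranged from 0.0150 to 0.417.

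Smad3, the other receptor-activated Smad of the pathway (chromosome 9, 63646767 to 63757994, minus strand), had 38.8, 32.5 and 35.5 CPM in RI and 57.7, 38.7 and 36.3 CPM in ICI. ICI replicate 1 stood above the other 5 libraries, which lay close together. Smad3 was not called (log2 fold change -0.31, SE 0.19, adjusted p = 0.292), and its log2 fold change was -0.09 without ICI replicate 1 and -0.27 with the length and GC correction. Smad7, the inhibitory Smad that TGF-beta itself induces, had 10.995, 6.96 and 9.29 CPM in RI and 13.2, 10.1 and 12.3 CPM in ICI. The groups overlapped by RI replicate 1 and ICI replicate 2, and Smad7 was not called (log2 fold change -0.38, SE 0.22, adjusted p = 0.265). Its log2 fold change was -0.55 without RI replicate 1, -0.21 without RI replicate 2 and -0.51 with the length and GC correction.

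RI replicate 1 had the highest level of its group for 7 of the 9 genes and ICI replicate 1 the highest of its group for 7 of 9. Tgfb3 and Tgfbr1 were the exceptions in RI. The 9 genes together summed to 219, 154 and 181 CPM in RI replicates 1, 2 and 4 and to 277, 206 and 223 CPM in ICI replicates 1, 2 and 3, so the sums overlapped.

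**Figure D2:**
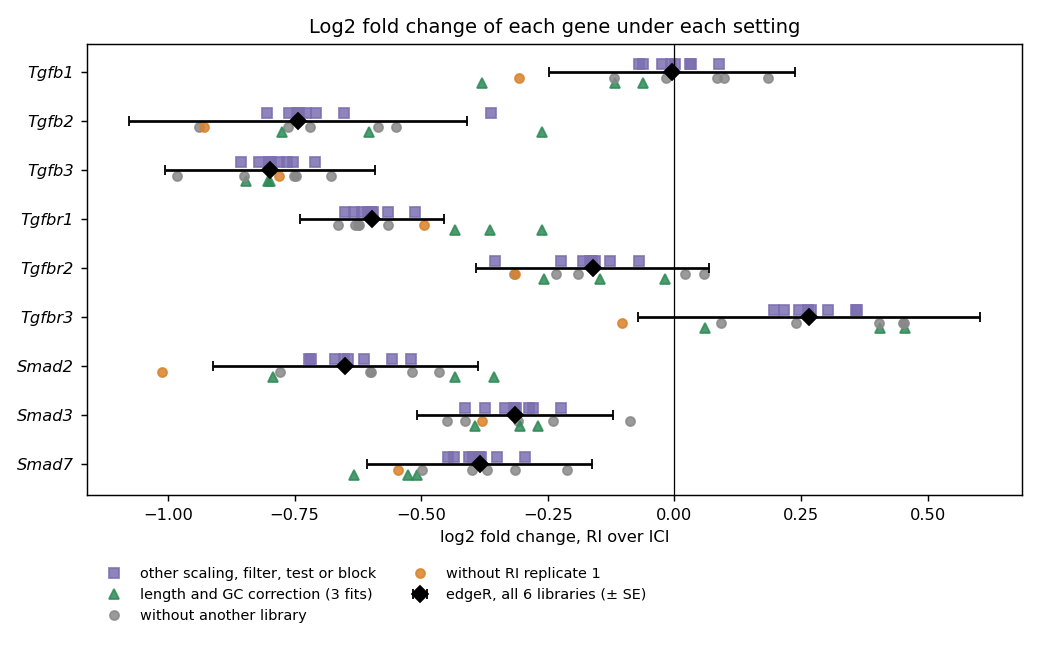
Log2 fold change of RI over ICI (horizontal axis) of each of the 9 genes (rows) with all 6 libraries (black diamond, ± SE) and under 17 other settings: scaling, filter, test or replicate block (squares), without 1 library (circles, RI replicate 1 in orange) and with a length and GC correction (triangles). Tgfb2, Tgfb3, Tgfbr1, Smad2, Smad3 and Smad7 lie below 0 under every setting drawn, and Tgfb1, Tgfbr2 and Tgfbr3 on both sides.

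Levels between genes were compared as CPM per kilobase of exon union. Averaged over the 6 libraries, the order was Smad3 at 7.20 ± 1.63, Tgfbr2 at 6.53 ± 1.51, Tgfb1 at 4.85 ± 1.13 and Tgfbr1 at 4.75 ± 1.12 CPM per kilobase (SD, n = 6). Next came Tgfb3 at 3.78 ± 1.32, Smad2 at 3.42 ± 1.12 and Smad7 at 2.31 ± 0.491 CPM per kilobase, then Tgfbr3 at 0.768 ± 0.249 and Tgfb2 at 0.505 ± 0.184. The libraries of neighbours in this order overlapped, with the exception of Smad7 and Tgfbr3, whose values did not meet. Tgfbr1 was at 3.78 ± 0.483 CPM per kilobase in RI, below Tgfb1 at 4.85 ± 1.63, and at 5.72 ± 0.280 in ICI, above Tgfb1 at 4.86 ± 0.736 (SD, n = 3 each). Single libraries did not all follow these means. Tgfbr1 was above Tgfb1 in RI replicate 2 (3.97 against 3.60) and below it in ICI replicate 1 (5.54 against 5.60). With the length of the longest transcript in place of the exon union, the Tgfb1 level was 9.51 CPM per kilobase and the first of the 9, because its exon union of 5042 bases is longer than its longest transcript of 2573 bases. On that scale Tgfb1 was above Tgfbr1 in every library of both groups.

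**Figure D3:**
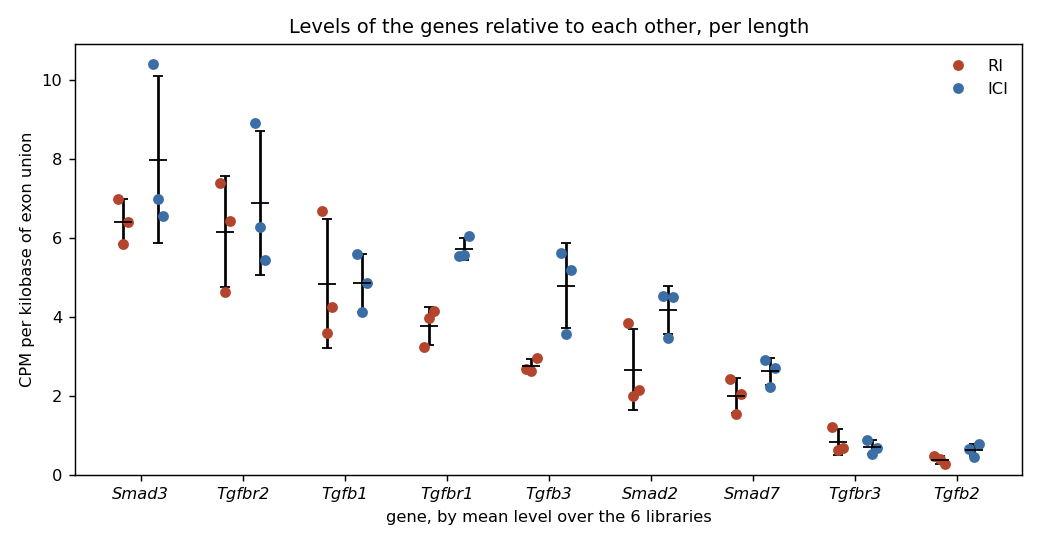
Level of each of the 9 genes (horizontal axis, in order of the mean over 6 libraries) in CPM per kilobase of exon union (vertical axis), with RI libraries in red to the left and ICI libraries in blue to the right, and bars for mean and SD (n = 3 each). Tgfbr3 and Tgfb2 are at most 1.22 in every library, below the other 7 genes.

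Beyond these 9 genes, 7 lists of genes with roles in the pathway held 124 genes, of which 108 were tested. In RI 5 of them were called higher, 6 lower and 97 did not pass. The 11 called are 10.2% of the 108, near the 9.18% of all tested genes. With the correction for length and GC content 2 were higher and 2 lower, where 1.54% and 2.06% of all tested genes were. DESeq2 called 8 higher and 12 lower, where it called 8.28% and 8.42% of all genes, and limma-voom 3 higher and 4 lower, against 3.75% and 4.08%. Without RI replicate 1, 5 were higher and 10 lower, against 8.91% and 8.8% of all genes, and without ICI replicate 2, 1 was higher and 2 lower. Without ICI replicate 1, ICI replicate 3, RI replicate 2 or RI replicate 4, edgeR called 0 of the pathway genes. Of the 109 to 113 it tested, 11 to 16 were higher and 12 to 14 lower at an unadjusted p under 0.05. Of all 17266 to 17746 genes tested, 1841 to 2353 were higher and 1860 to 2203 lower at that p. In these 4 fits the log2 fold changes of the 11 genes were 0.784 to 1.17 times those with all libraries, and over all tested genes 0 were called without ICI replicate 1, 2 higher without ICI replicate 3, 0 without RI replicate 2, and 81 higher and 16 lower without RI replicate 4. Beside each called gene, a range of adjusted p is that over 17 other settings. Means below are given ± SD (n = 3 each).

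Of 5 Smads outside the 9 genes, 2 fell, 0 rose and 3 did not pass. Smad4, the partner that receptor-activated Smads share in the TGF-beta and BMP branches, had 54.9, 41.1 and 50.9 CPM in RI and 74.0, 75.4 and 73.8 CPM in ICI. The ICI libraries were nearly level and all above RI (log2 fold change -0.60, SE 0.14, adjusted p = 0.0390, and 0.04996 with the length and GC correction, range 0.00587 to 0.152). Smad5, which carries BMP signals, was at 91.8 ± 2.53 CPM in RI and 148 ± 32.9 CPM in ICI (SD, n = 3 each; log2 fold change -0.69, SE 0.18, adjusted p = 0.0484, and 0.0944 with the correction, range 0.00229 to 0.234). Smad6, the inhibitory Smad of the BMP branch, was at 5.33 ± 0.335 CPM in RI and 8.05 ± 1.16 CPM in ICI and Smad9 at 0.223 ± 0.0761 CPM in RI and 0.754 ± 0.296 CPM in ICI, and they did not pass (adjusted p = 0.102 and 0.0628). Smad1 was at 19.7 ± 0.926 CPM in RI and 18.8 ± 0.309 CPM in ICI (adjusted p = 0.736).

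Of 9 tested receptors of the wider superfamily, 1 fell, 0 rose and 8 did not pass. Bmpr1a, a type I receptor for BMPs, had 34.0, 31.9 and 33.7 CPM in RI and 47.7, 47.1 and 46.6 CPM in ICI. Both groups were tight and did not meet (log2 fold change -0.51, SE 0.11, adjusted p = 0.0387), and with the length and GC correction the log2 fold change was -0.27 (adjusted p = 0.195, range 0.0102 to 0.333). Of the 9 receptors, 5 had all RI libraries below ICI, where 19.4% of all tested genes did, and 31.7% of those with transcripts of 4000 bases or more. Eng, an endothelial co-receptor, was at 244 ± 13.1 CPM in RI and 255 ± 21.1 CPM in ICI (adjusted p = 0.768). Acvrl1, its type I partner in vessels, was at 97.2 ± 11.4 CPM in RI and 79.6 ± 2.55 CPM in ICI, apart but not past the test (adjusted p = 0.161).

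Of 9 tested ligands of the superfamily, 1 rose, 0 fell and 8 did not pass. Inha, the alpha subunit of inhibin, which opposes activin, had 7.98, 7.55 and 6.39 CPM in RI and 1.44, 2.32 and 1.21 CPM in ICI. It rose 4.41-fold with no overlap (log2 fold change 2.14, SE 0.31, adjusted p = 0.0252, and 0.0300 with the length and GC correction, range 8.26e-09 to 0.137). Gdf15, a stress-induced member, was at 50.4 ± 16.8 CPM in RI and 33.7 ± 11.5 CPM in ICI and Gdf11 at 26.2 ± 11.7 CPM in RI and 31.4 ± 6.16 CPM in ICI, and neither passed (adjusted p = 0.252 and 0.616).

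Of 19 tested genes of latency and activation, 1 rose, 0 fell and 18 did not pass. Bmp1, a metalloprotease that cleaves procollagen and latent TGF-beta binding proteins, had 60.5, 64.6 and 60.8 CPM in RI and 42.9, 35.3 and 37.6 CPM in ICI. It rose 1.61-fold (log2 fold change 0.68, SE 0.12, adjusted p = 0.0292, and 0.0388 with the correction, range 0.00213 to 0.137). Itgav, an integrin chain that binds the latent complex, averaged 105 ± 12.05 CPM in RI and 145 ± 11.4 CPM in ICI, with adjusted p = 0.0655. Mmp14, a membrane metalloprotease, was at 174 ± 33.3 CPM in RI and 175 ± 8.05 CPM in ICI (adjusted p = 0.975).

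Of 18 tested inhibitors and degraders, 1 rose, 2 fell and 15 did not pass. Smurf2, a ubiquitin ligase that Smad7 recruits to the receptors, had 44.7, 44.8 and 45.9 CPM in RI and 68.6, 63.4 and 62.7 CPM in ICI (log2 fold change -0.52, SE 0.11, adjusted p = 0.0346, and 0.0846 with the length and GC correction, range 0.00684 to 0.169). Tgif2, a Smad corepressor, was at 5.26 ± 0.189 CPM in RI and 10.5 ± 2.11 CPM in ICI (log2 fold change -0.99, SE 0.22, adjusted p = 0.0378, and 0.0412 with the correction, range 0.00146 to 0.156). Its value is uncertain, since 90.8% of its longest transcript is shared with other gene models at 95% identity or more, and 1 of them, on the opposite strand, overlaps 56.7% of its exons. Chrd, the BMP antagonist chordin, was at 1.32 ± 1.06 CPM in RI and 0.198 ± 0.104 CPM in ICI (log2 fold change 2.75, SE 0.70, adjusted p = 0.0471). RI replicate 1 held 2.52 CPM of Chrd, and without it the log2 fold change was 1.90 (adjusted p = 0.0579, range 0.0019 to 0.152). Fkbp1a, which holds the type I receptor inactive, was at 326 ± 38.1 CPM in RI and 376 ± 13.97 CPM in ICI and Nedd4l, a ubiquitin ligase, at 80.5 ± 8.47 CPM in RI and 79.1 ± 10.2 CPM in ICI, and neither passed (adjusted p = 0.326 and 0.919).

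Of 13 tested cofactors, 1 fell, 0 rose and 12 did not pass. Sp1, a transcription factor that binds GC boxes, had 56.5, 36.9 and 45.0 CPM in RI and 77.2, 65.1 and 81.5 CPM in ICI (log2 fold change -0.69, SE 0.18, adjusted p = 0.0483, and 0.136 with the length and GC correction, range 0.00216 to 0.243). Tab2, an adaptor of the kinase Map3k7, was at 77.1 ± 4.98 CPM in RI and 87.1 ± 9.53 CPM in ICI and Cd109, a TGF-beta co-receptor, at 75.3 ± 14.4 CPM in RI and 93.7 ± 23.4 CPM in ICI, and neither passed (adjusted p = 0.365 and 0.319).

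Of 35 tested classic targets, 2 rose, 0 fell and 33 did not pass, with a median log2 fold change of 0.08 and 19 above 0 and 16 below. Junb, an AP-1 factor induced early by many signals, had 147, 71.7 and 75.7 CPM in RI and 43.8, 40.9 and 41.9 CPM in ICI (log2 fold change 1.22, SE 0.27, adjusted p = 0.0402). Without RI replicate 1 the log2 fold change of Junb was 0.80 (adjusted p = 0.0120), and with the length and GC correction it was 0.81 (adjusted p = 0.0911, range 0.000537 to 0.152). Itga5, the fibronectin receptor chain, was at 125 ± 12.7 CPM in RI and 87.3 ± 7.54 CPM in ICI (log2 fold change 0.52, SE 0.13, adjusted p = 0.0495, and 0.151 with the correction, range 0.0283 to 0.248). Col1a1, the main fibrillar collagen chain, was at 176 ± 63.8 CPM in RI and 139 ± 122 CPM in ICI, and Cdkn1a, a cell cycle inhibitor that p53 also induces, at 269 ± 69.9 CPM in RI and 194 ± 33.6 CPM in ICI, and neither passed (adjusted p = 0.774 and 0.175). The log2 fold change of Col1a1, 0.34, was -0.12 without ICI replicate 2 and 1.29 without ICI replicate 3.

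**Figure D4:**
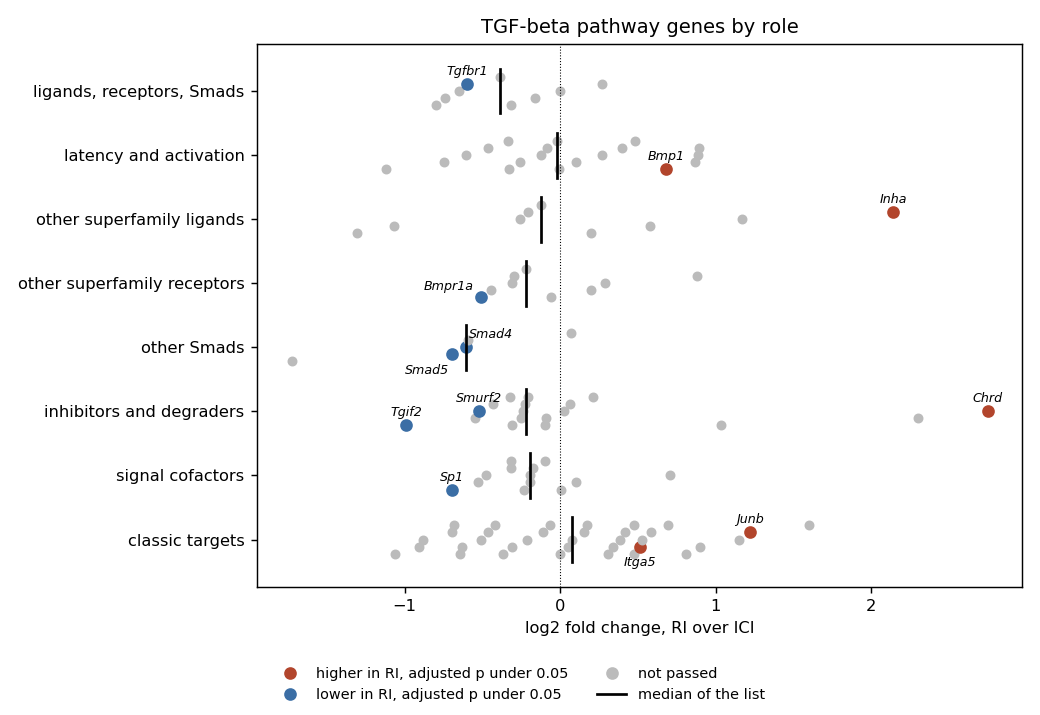
Log2 fold change of RI over ICI (horizontal axis) of each tested gene of the pathway, by role (rows), with genes called higher in red, called lower in blue and the others in grey, and the median of each list as a vertical bar. The 9 genes have their median at -0.38, the other Smads at -0.60 and the classic targets at 0.08.

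The pathway gene with the library profile most like each of the 9 was taken as the smallest root mean square difference of log2 CPM, centred per gene, over 6 libraries and 108 candidates. Tgfb3 was most like Smad5 (difference 0.0731), Smad2 most like Skil, a Smad corepressor (0.0928), Tgfbr2 most like the protease gene Furin (0.107) and Tgfbr1 most like the acetyltransferase gene Ep300 (0.114). Smad7 was most like Itgb3 (0.124), Smad3 like Hipk2 (0.136), Tgfb1 like Traf6 (0.168), Tgfbr3 like Ltbp3 (0.206) and Tgfb2 like Smad6 (0.226). The median difference to all candidates was 0.448 to 0.551. The values share the libraries and their depth, and each closest gene was picked from 108.

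Markers of cells that make or answer TGF-beta varied by library, and their part in the levels of the 9 genes was not tested. Of 10 fibroblast markers 0 were called, and they summed to 364 to 763 CPM in RI and 121 to 739 CPM in ICI. Of 8 endothelial markers 0 were called, with sums of 80.8 to 274 CPM in RI and 94.1 to 202 CPM in ICI. Of 8 pericyte and smooth muscle markers 0 were called, with sums of 104 to 622 CPM in RI and 129 to 211 CPM in ICI, and of 10 macrophage markers 0, with sums of 191 to 405 CPM in RI and 196 to 243 CPM in ICI. For each of these 4 lists RI replicate 1 held the highest sum of the 6 libraries, but not every member was highest there. The fibroblast markers Col1a1, Col1a2, Lum, Fap and Thy1 were highest in an ICI library. So were the endothelial markers Kdr and Tie1 and the macrophage markers Csf1r, Adgre1 and Fcgr1. The remaining markers of these cell types were highest in RI replicate 1. For pericytes and smooth muscle, 536 of the 622 CPM in RI replicate 1 were Des. Skeletal muscle markers were also highest in that library. In the pericyte and smooth muscle list Des and Myh11 were highest in RI replicate 1 and Tagln in ICI replicate 1. Rgs5, Pdgfrb, Cspg4, Acta2 and Notch3 were highest in ICI replicate 3. The 8 markers of T and NK cells summed to 1.40 to 15.4 CPM in RI and 3.30 to 52.2 CPM in ICI, with 0 of 7 tested called and the NK marker Ncr1 at 0 counts in all RI libraries and at 0, 0 and 2 counts in ICI. Platelet markers, in a cell type that stores TGF-beta, summed to 13.7 to 26.5 CPM in RI and 7.04 to 9.96 CPM in ICI. Of these, 1 of 4 was called (Pf4, log2 fold change 0.90, adjusted p = 0.0494). Itga2b also had every RI library above ICI and was not called (log2 fold change 1.85, adjusted p = 0.0813). Ppbp (-0.007, adjusted p = 0.996) and Gp9 (0.30, adjusted p = 0.781) overlapped. Skeletal muscle markers summed to 19.6 to 2483 CPM in RI and 2.78 to 223 CPM in ICI, and adipocyte markers to 59.9 to 79.9 CPM in RI and 0.679 to 26.5 CPM in ICI. Of the remaining lists, Schwann cell and nerve markers summed to 1330 to 1849 CPM in RI and 1236 to 1290 CPM in ICI, and B and plasma cell markers to 2.75 to 3.80 CPM in RI and 2.11 to 2.79 CPM in ICI. Keratinocyte markers summed to 4.39 to 5.21 CPM in RI and 2.15 to 3.17 CPM in ICI, with Krt14 at 0 counts in all RI libraries and at 0, 2 and 0 counts in ICI, and Krt5 at 1, 0 and 0 counts in RI and 0 in all ICI libraries.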

How the data were processed

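The values are raw counts, whole numbers that the authors deposited for 34665 Ensembl genes in 6 libraries (3 RI, 3 ICI). HISAT2 and the builds GRCm38 and mm10 are named in the submitters' processing notes, while the sources used here do not give the counting tool, annotation release or strand setting. Library totals ran from 22543721 to 45624013 counts, and intervals printed here cover counting error only. No pair of libraries agreed within sampling noise (chi-square per degree of freedom at least 36.3). From the counts, edgeR 4.0.16 in R 4.3.3 kept 16924 genes by filterByExpr, scaled libraries by TMM and compared RI with ICI by the robust quasi-likelihood test with Benjamini-Hochberg adjustment over all genes tested. Alternatives were other scalings and filters, DESeq2 1.42.0, limma-voom (limma 3.58.1), the replicate number as a block, leaving out each library or the mitochondrially encoded genes, and a per-library spline correction (5 degrees of freedom each) for transcript length and GC content. Lengths, positions and GC content came from GENCODE M21 on GRCm38 (99.57% of tested genes), shared stretches from blastn at 95% identity over at least 200 bases, and promoters from RefSeq.

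The 9 genes, the 7 pathway lists and the 12 marker lists were chosen with earlier results of these data known. The pathway genes named were up to 4 called genes per direction and list, the 2 genes with the highest level per list, and the closest profile to each of the 9. Smad1, Smad6 and Smad9 are named beside them and were chosen after their values were seen. So were the single genes named from the fibroblast, endothelial, pericyte, macrophage and platelet lists. Gp1bb and Krt1 of the marker lists were not analysed here.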

Additional observations from a re-analysis of the deposited data

How the results depend on the processing

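Counts of calls over all genes moved with the setting and with single libraries. Against 754 genes called higher and 799 lower, DESeq2 gave 1532 and 1559, no filter 1121 and 1507, upper-quartile scaling 1046 and 497 (where the median log2 fold change of all genes was 0.10), the length and GC correction 260 and 349, and this correction without RI replicate 1, an alternative chosen after seeing the data, 1188 and 1294. Leaving out 1 library gave 0 to 1564 higher and 0 to 1545 lower: 0 of each without ICI replicate 1 or RI replicate 2 (edgeR, with 1841 to 2130 higher and 1860 to 1977 lower at an unadjusted p under 0.05). Without RI replicate 1 there were 1564 and 1545, without RI replicate 4 81 and 16, without ICI replicate 2 234 and 291, and without ICI replicate 3 2 and 0. Of the 9 genes 1 was called lower, against 3 with no filter, 2 with DESeq2, 0 with upper-quartile scaling, 0 with the length and GC correction and 0 to 2 without 1 library. Of the other pathway genes 5 were called higher and 6 lower, against 8 and 11 with no filter, 8 and 12 with DESeq2, 3 and 4 with limma-voom, 6 and 2 with upper-quartile scaling, 2 and 2 with the length and GC correction, 2 and 7 with it and without RI replicate 1, and 0 to 5 and 0 to 10 without 1 library. The shared replicate numbers 1 and 2 were not shown to pair the samples, as the deviations from the group means correlated at 0.353 and 0.0909. Only the replicate numbers 1 and 2 occur in both groups. With the replicate number as a block, RI replicate 4 and ICI replicate 3 stand alone and carry no weight on the group difference. What the block changes cannot be told apart from the loss of these 2 libraries. With this block, 400 genes were called higher and 245 lower, 0 of the 9 genes, and 12 and 0 pathway genes. Inha, Junb and Chrd were among these 12, and 9 were not called without the block: Col1a1 (log2 fold change 1.62, adjusted p = 0.0112), Col1a2 (1.496), Col3a1 (1.72), Lox (2.67), Dcn (3.08), Mmp2 (1.24), Timp1 (1.02), Igfbp7 (0.89) and Lrrc32 (1.31), named after their values were seen. Over the alternatives the adjusted p of Col1a1 ranged from 0.0112 to 0.997. With the block and the length and GC correction these were 216 and 134, 0 of the 9, and 5 and 0. The log2 fold change of Tgfb1, -0.00, was 0.000546 with median-of-ratios scaling, 0.0883 with upper-quartile scaling, 0.0322 at 1 CPM in 3 libraries, 0.0299 with the replicate block and -0.31 to 0.18 without 1 library. It was -0.32 to 0.0578 for Tgfbr2 and -0.10 to 0.45 for Tgfbr3 without 1 library. Among pathway genes, Mmp14 was 0.0750 with upper-quartile scaling, 0.0219 at 1 CPM in 3 libraries, 0.0235 with the length and GC correction without RI replicate 1 and -0.17 to 0.10 without 1 library. Gdf11 was 0.0820 with that correction and without that library and -0.61 to 0.0384 without 1 library, Col1a1 -0.0845 and -0.12 to 1.29, Nedd4l -0.0315 with no filter, -0.10 with the replicate block and -0.0580 to 0.13 without 1 library, Eng 0.0260 with upper-quartile scaling and Gdf15 -0.0345 with the replicate block and the length and GC correction. The cause of these moves was not tested. The Tgfb1 level, 4.85 CPM per kilobase of exon union, was 9.51 per kilobase of longest transcript. Of 153 fold changes of the 9 genes over 17 settings, 127 kept their direction and side of the threshold, 6 became calls, 10 lost the call and 10 changed sign. The calls of Tgfbr1 and of the 11 other pathway genes were each lost without ICI replicate 1, where 0 of all tested genes were called and the log2 fold changes stayed about as large (-0.63 for Tgfbr1). At 33 counts in 1 library Tgfb2 is the gene of the 9 that depth limits most.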
